A study of Mus musculus with 12 samples.

Results

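The 38 genes described here encode the constitutive proteasome of the mouse and the activators that bind it. They comprise 14 subunits of the 20S core particle (7 of the alpha ring, 7 of the beta ring), 17 subunits of the 19S regulatory particle (6 ATPases, 11 non-ATPase subunits), 3 chaperones of 19S assembly and 4 activator subunits. They were chosen by name, through their Entrez IDs, and the inducible subunits of the immunoproteasome were left out. All 38 were found among the 27179 genes of the deposited table, and all 38 were among the 13939 genes with enough signal to be tested.

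The 12 libraries of poly(A) RNA were made from mIMCD3 cells, an epithelial line of mouse kidney (inner medullary collecting duct), in 4 groups of 3 libraries. The KO-1 CB libraries came from the Actr3 KO-1 line starved in medium with 0.5 µM ciliobrevin D, which blocks the motor cytoplasmic dynein. The dKO libraries came from a line labelled as lacking Actr3 and Ift88, the KO-1 libraries from the Actr3 KO-1 line without ciliobrevin D, and the control libraries from a line labelled wild type control. Cells of every group were kept 48 h at confluence and then 24 h without serum, and untreated cells had solvent, per the protocols. Actr3 encodes ARP3, part of the Arp2/3 complex, which starts branches on actin filaments, and Ift88 a component of the intraflagellar transport that builds cilia. By the sample titles each genotype was represented by 1 line, so that an effect of the genotype and a difference between lines cannot be told apart. Separate cultures are not stated for the replicates, so the p-values measure the spread between these libraries, which may be technical. A control library whose column name fits no listed replicate was kept in the control group and is called unnumbered here. Its name gives another line number than the other control columns, so it could come from another control line. No column carries the name of control replicate 2.

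The 26S proteasome degrades proteins that carry ubiquitin chains. Its 20S core is a barrel of stacked rings: the alpha rings gate the entrance, and the beta rings hold the proteolytic sites, of which Psmb6 carries the caspase-like, Psmb7 the trypsin-like and Psmb5 the chymotrypsin-like one. The 19S particle caps the barrel, binds the ubiquitin chain, removes it, and unfolds and threads the substrate with its ring of ATPases. Activators such as PA28 open the gate without ATP, and interferon-induced subunits can replace the constitutive catalytic ones to form the immunoproteasome. The subunits are made in fixed proportions, and their genes are known to be induced together by the transcription factor NRF1 (Nfe2l1) when proteasome activity is short.

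Libraries held 28902562 to 38077987 recovered reads. Actr3, the edited gene, had 1399.5, 1562 and 1759 normalized counts in KO-1 CB, 870.0, 833 and 911 in dKO, 1347, 1145 and 1163 in KO-1 and 8101, 8243 and 8664 in control, so it was low in all 9 libraries of the edited lines. Ift88 had 633, 573 and 606 normalized counts in dKO and 656, 602 and 594 in KO-1, groups that overlapped (log2 fold change -0.030 ± 0.071, SE, adjusted p = 0.725), so its level gave no check of the dKO label. Of 15 collecting duct markers, 11 were high in every library (Hoxb7 lowest, 917 to 1496; Epcam 11126 to 23046), while Gata3 (15.3 to 86.4), Scnn1a (34.2 to 83.2), Aqp3 (1.23 to 17.3) and Aqp2, the water channel that defines principal cells (0 to 1.86), were low. Of the markers of other cells reported here, most were low: Slc34a1, Slc5a2, Nphs1, Cdh5, Kdr, Tek, Cd3e, Adgre1, Col1a2 and Col3a1 stood at 0 to 4.94, and Pecam1, Pdgfrb, Ptprc and Pdgfra reached 19.8, 9.996, 27.6 and 34.2. Others did not: Lrp2 (5275 to 17066) and Cubn (93.3 to 165) of the proximal tubule, Synpo of podocytes (963 to 3053; 1.51 higher in KO-1 than in control) and Col1a1 of fibroblasts (61.0 to 160.4) were present in every library. Of the 14 collecting duct markers tested, 9 were lower in KO-1 than in control (64.3%, beside 35.4% of all tested genes). Another 3 were higher (21.4%, beside 34.4%). The log2 fold changes of the 14 ran from -1.77 to 1.4951 (Krt8 -1.38, Cdh16 0.95). Cd68, of macrophages, was higher in KO-1 CB than in KO-1 (1.04, with 127 to 347 normalized counts in all libraries). The part of these markers in the results was not tested. Reads of mitochondrial genes made up 8.30% to 9.33% in KO-1 CB, 4.88% to 4.97% in dKO, 7.90% to 9.49% in KO-1 and 4.00% to 4.92% in control, and this too was not tested as a factor. Of the 38 genes, 12 share at least 200 bases at 95% identity or more with another annotated gene, so their counts are uncertain. Psma3, Psma4, Psma5, Psmb3, Psmb5, Psmc1, Psmd2 and Psmd11 have a pseudogene copy. Psmb7, Psmd1 and Psmd13 have an overlapping transcript, and Psme2 has the copy Psme2b.

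Every subunit gene was well expressed. A normalized count is a gene's read count divided by the library's size factor. Per 1000 bases of exon and averaged over the 12 libraries, levels ran down from 6024 for Psmb4, a structural beta subunit, through 5975 for Psmb7, 4544 for Psmb6 and 1607 for Psmb5, to 342 for Psmd10 (gankyrin), a chaperone of 19S assembly. The summed normalized counts of the 38 genes were 153699 ± 3551 in KO-1 CB, 149002 ± 3652 in dKO, 117473 ± 3853 in KO-1 and 178754 ± 4080 in control (SD, n = 3 each). The KO-1 libraries (114861 to 121898) lay below those of the other groups, and the control libraries (175511 to 183335) above all of them. In RNA of whole cultures, fewer cells of a kind and less of an RNA per cell cannot be told apart.

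**Figure D1:**
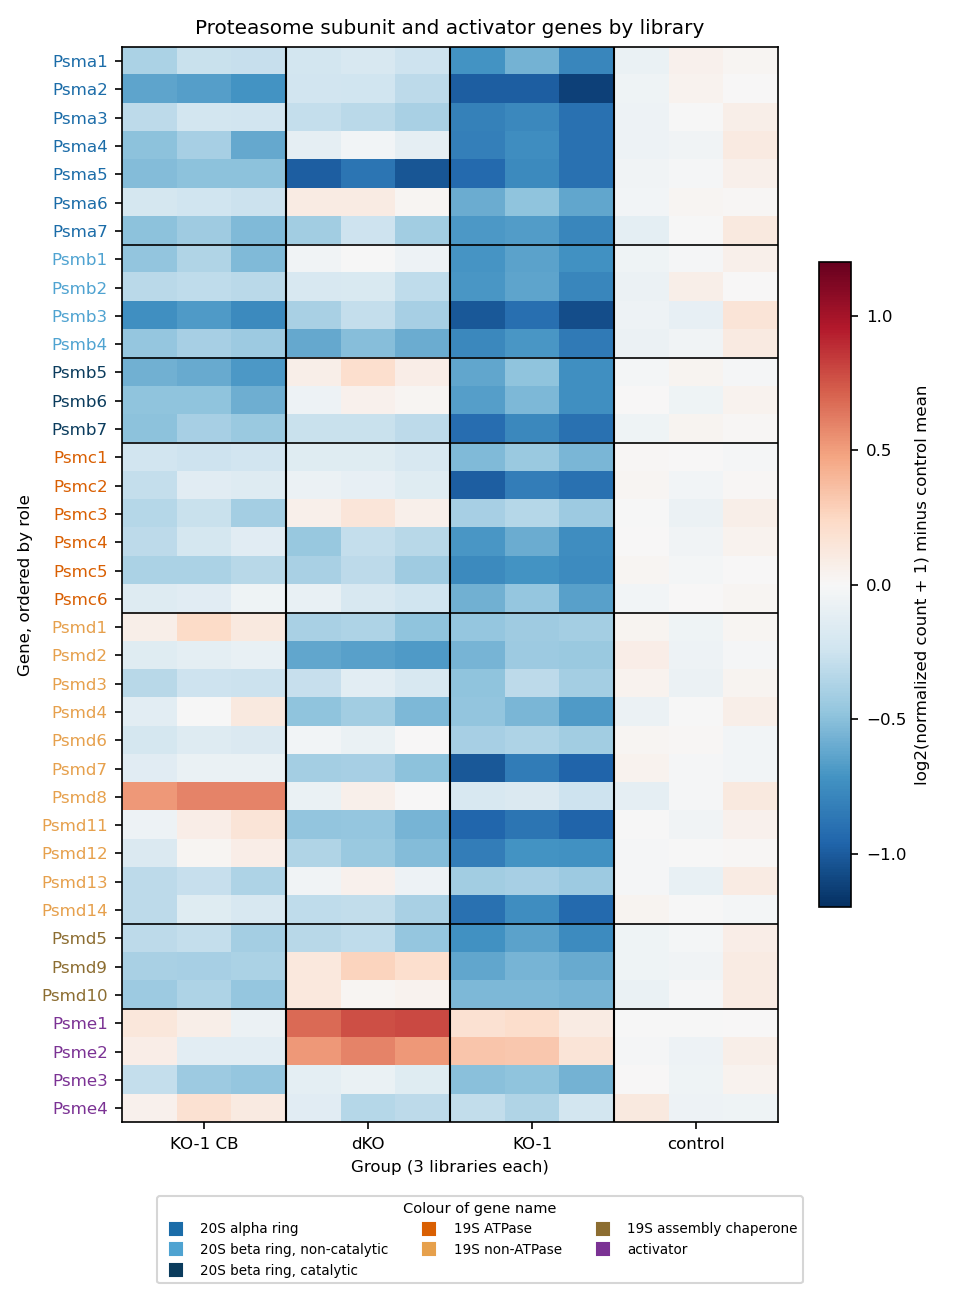
Each cell gives log2(normalized count + 1) of a gene in a library minus the mean of the 3 control libraries; columns are the KO-1 CB, dKO, KO-1 and control libraries, and rows are the 38 genes in order of role. The KO-1 columns are blue for all genes but Psme1 and Psme2, and Psmd8 is red in the KO-1 CB columns.

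The first comparison asked how the subunit genes stood in the Actr3 KO-1 line. Of the 38 genes, 36 were lower in KO-1 than in control (94.7%; 35.4% of all 13939 tested genes were called lower) and 2 were higher (5.26%; 34.4% of all tested genes). Calls were made with limma across all tested genes on log2(normalized count + 1), with a two-sided threshold of 0.05 on the p adjusted by Benjamini and Hochberg. The median log2 fold change of the 38 was -0.66, against 0.0047 for all tested genes. The KO-1 and control libraries did not overlap for any of the 38, with KO-1 below control for 36 (37.2% of all tested genes) and above it for 2 (36.0%). The genes of the core, the cap and the assembly chaperones were all among the lower ones, and the activators were split.

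All 14 genes of the 20S core were lower, with log2 fold changes of -1.03 to -0.57 and a median of -0.74. Psma2, a subunit of the alpha ring, had 1527, 1522 and 1395 normalized counts in KO-1, against 2927, 3123 and 3047 in control. The highest KO-1 library was far below the lowest control library, and Psma2 had the largest fall among the 38 (-1.03 ± 0.053, adjusted p = 6.15e-13). Psmb3, a structural subunit of the beta ring, had 1986, 2148 and 1916 in KO-1 and 3847, 3762 and 4484 in control, where the unnumbered library was the highest (log2 fold change -0.996 ± 0.0635, adjusted p = 1.45e-11).

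The 3 catalytic subunits fell as well. Psmb5 had 1107, 1219 and 1025 normalized counts in KO-1 and 1678, 1744 and 1692 in control (log2 fold change -0.61 ± 0.064, adjusted p = 2.66e-08). Psmb6 had 2747, 2989.6 and 2600.2 in KO-1 and 4364, 4193 and 4466 in control (-0.65 ± 0.056, adjusted p = 1.90e-09). Psmb7 had 4730.2, 5208 and 4783 in KO-1 and 8634, 9140.4 and 9012 in control (-0.86 ± 0.051, adjusted p = 4.54e-12). For each of them all 3 KO-1 libraries were below all 3 control libraries. The Psmb7 gene shares 34.9% of its exon length with Nek6 on the opposite strand, and the strand setting of the counting was not known here, so the counts are uncertain.

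All 17 genes of the 19S particle were lower too, with a median of -0.56. The 6 ATPases, which form the unfolding ring, had log2 fold changes of -0.90 (Psmc2) to -0.39 (Psmc3). Among the 11 non-ATPase genes the range was wider. Psmd7, a lid subunit that pairs with the deubiquitinase Psmd14, had 2344, 2662 and 2436 normalized counts in KO-1, against 4896, 4718 and 4659 in control (log2 fold change -0.94 ± 0.053, adjusted p = 2.04e-12), while Psmd14 itself had -0.86. At the other end, Psmd8, another lid subunit, had 3855, 3903 and 3704 in KO-1 and 4103, 4376 and 4779.8 in control (-0.21 ± 0.057, adjusted p = 0.0028), the smallest fall among the 38, and not called after quantile normalization (adjusted p = 0.0942). The 3 chaperones Psmd5, Psmd9 and Psmd10, which help assemble the ATPase ring and leave the finished particle, fell by 0.71, 0.59 and 0.54 on the log2 scale.

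The activators divided. Psme1 and Psme2 encode the alpha and beta subunits of PA28, which interferon gamma is known to induce. Psme1 had 2326, 2375 and 2191 normalized counts in KO-1 and 2044, 2047 and 2063 in control (log2 fold change 0.16 ± 0.057, adjusted p = 0.0149). Psme2 had 1256, 1247 and 1106 in KO-1 and 989, 956 and 1047 in control (0.27 ± 0.069, adjusted p = 0.00152). Both rose without overlap, but the call of Psme1 was lost without KO-1 replicate 2 (adjusted p = 0.0649), and Psme2 has a copy, Psme2b, that is 99.4% identical over 794 bases and could share its reads. Psme3, the nuclear activator PA28 gamma, had 3483, 3515 and 3326 in KO-1 and 4934, 4747 and 5079 in control and fell by 0.52 (adjusted p = 2.46e-08). Psme4, which encodes PA200, had 3715, 3541 and 3919 in KO-1 and 4922, 4369 and 4386 in control and fell by 0.29 (adjusted p = 3.45e-04).

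The proteasome genes are mostly short and highly expressed, and such genes moved as a class. Of the 38, 24 lie in the shortest of 4 equal groups of genes by exon length, whose median log2 fold change was -0.22 in KO-1 against control, and 26 in the highest of 4 equal groups by level, whose median was -0.11. When the median of genes of like exon length and level was removed from every library, an alternative added after the data were seen, the 38 had a median of -0.26; 27 were still called lower (35.7% of all genes in that fit) and 3 higher (35.0%). Psma2 was nearly as low (-0.98), Psmb5 fell by 0.19, Psmb6 stood at -0.037 (adjusted p = 0.51) and Psmd8 turned to 0.17 (adjusted p = 0.0023). Genes were matched on length and level together, and the shift could be larger than the medians by length or level alone. It was 0.61 for Psmb6, Psma1 and Psma6, 0.48 for Psmc1 and Psmd4, and small for Psma2. Exon length was the union of a gene's exons in the basic set of GENCODE transcripts, 2911 bases for Psma2 and 798 for Psmb6. Psma2 was therefore set against longer genes than Psmb6, and its small shift depends on that length. Psme1 and Psme2 stood higher on that scale, at 0.59 and 0.69. The labels give the same RNA quality number for all samples.

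**Figure D2:**
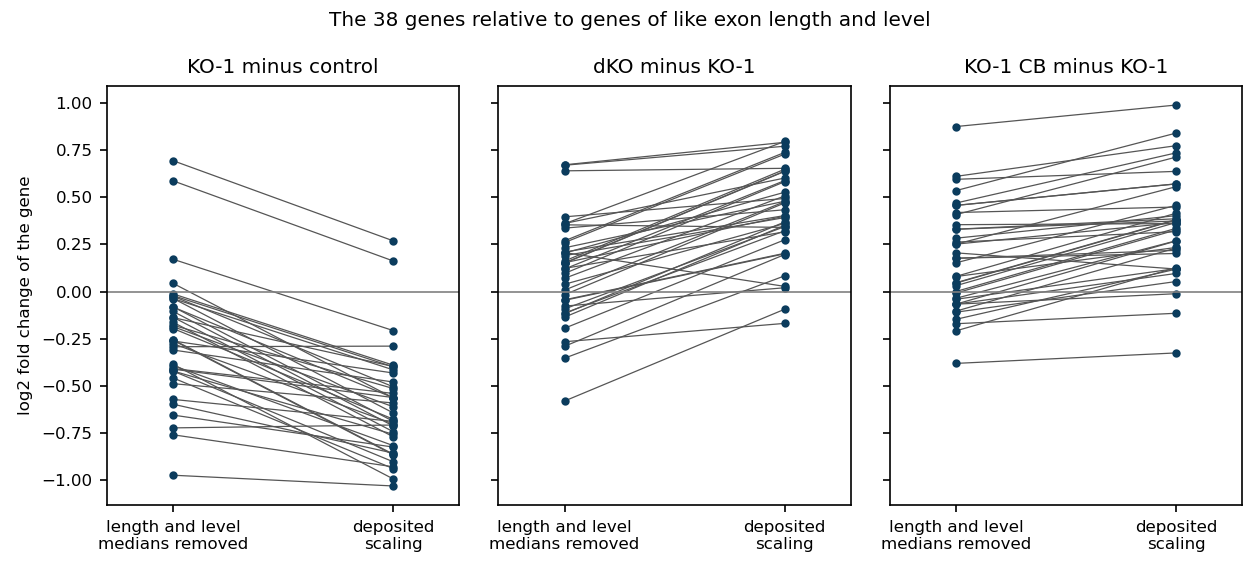
Log2 fold change of each of the 38 genes in 3 comparisons, after removal of the median of genes of like exon length and level (left in each panel) and with the deposited scaling (right); a line joins the 2 values of a gene. The median moves to -0.26 in KO-1 minus control, to 0.14 in dKO minus KO-1 and to 0.16 in KO-1 CB minus KO-1, against -0.66, 0.42 and 0.36 with the deposited scaling.

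The inducible subunits moved against their constitutive partners. Psmb9, which replaces Psmb6 in the immunoproteasome, had 440.0, 409 and 389.6 normalized counts in KO-1 and 37.3, 34.3 and 48.9 in control (log2 fold change 3.34 ± 0.15, adjusted p = 6.97e-14). Psmb8, which replaces Psmb5, had 1754, 1726 and 1630.4 in KO-1 and 456, 475 and 545 in control (1.79 ± 0.085, adjusted p = 1.50e-13). Psmb10, which replaces Psmb7, rose by 0.45 (adjusted p = 8.97e-05). Per exon length, Psmb8 amounted to 59.1% ± 4.19 of Psmb5 in KO-1 CB, 31.6% ± 2.47 in dKO, 84.5% ± 5.44 in KO-1 and 15.9% ± 1.60 in control (SD, n = 3 each). Psmb9 amounted to 3.88% ± 0.870 of Psmb6 in KO-1 CB, 1.90% ± 0.0901 in dKO, 8.79% ± 0.690 in KO-1 and 0.544% ± 0.0890 in control. The ratio was highest in KO-1 and lowest in control for both pairs, and no library of 1 group overlapped another group's. Psmb10 amounted to 4.83% ± 0.479 of Psmb7 in KO-1 CB, 5.83% ± 0.0409 in dKO, 8.34% ± 0.901 in KO-1 and 3.35% ± 0.233 in control. This ratio was also highest in KO-1 and lowest in control, but dKO lay above KO-1 CB. Psmb5 has a pseudogene copy and Psmb7 overlaps Nek6, which leaves their ratios uncertain. Psma8 and Psmb11, core subunits of testis and thymus, were at 0 and at 0 to 5.55 normalized counts.

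**Figure D3:**
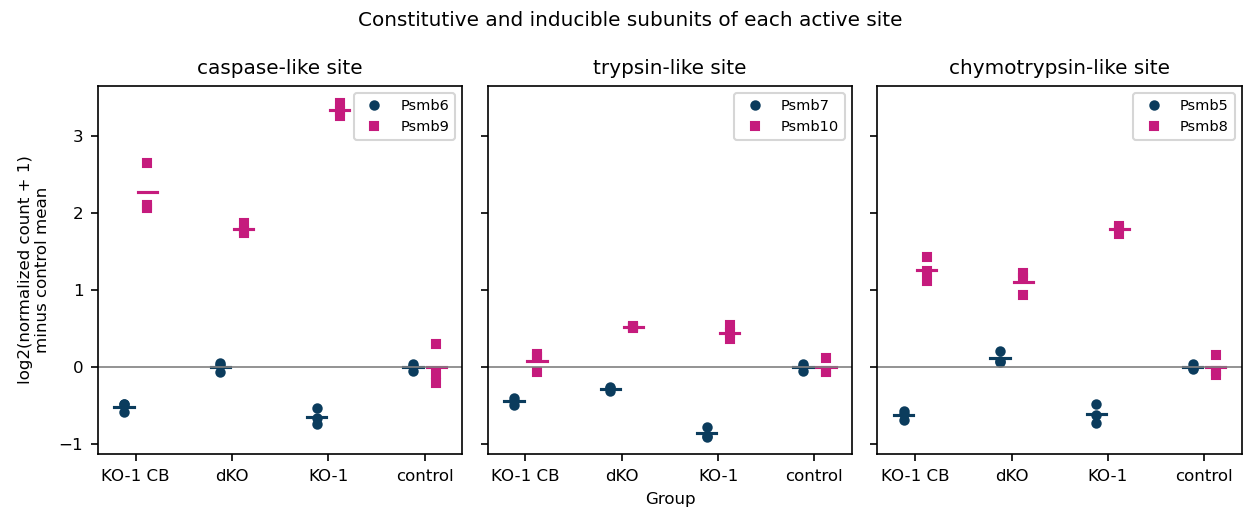
Log2(normalized count + 1) minus the control mean for the constitutive subunit (circles) and the inducible one (squares) of each active site in the KO-1 CB, dKO, KO-1 and control libraries; points are libraries and bars are means of 3. In KO-1 every square lies above the control mean and every circle below it.

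The second comparison set the line edited in both genes against KO-1. Of the 38 genes, 33 were higher in dKO than in KO-1 (86.8%; 32.5% of all tested genes), 1 was lower (2.63%; 33.2%) and 4 were not called. The same 33 and 1 were without overlap between the groups (35.5% and 35.7% of all tested genes), and the median log2 fold change was 0.42, against -0.012 for all tested genes. KO-1 enters this comparison and the one with control, so the opposite signs of the 2 share the KO-1 libraries and are not independent. In the core, 13 of 14 genes rose, with a median of 0.61. The 6 ATPases all rose (median 0.38), and so did the 8 lid subunits among the 38 (median 0.38). Whether core and cap differed was not tested.

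**Figure D4:**
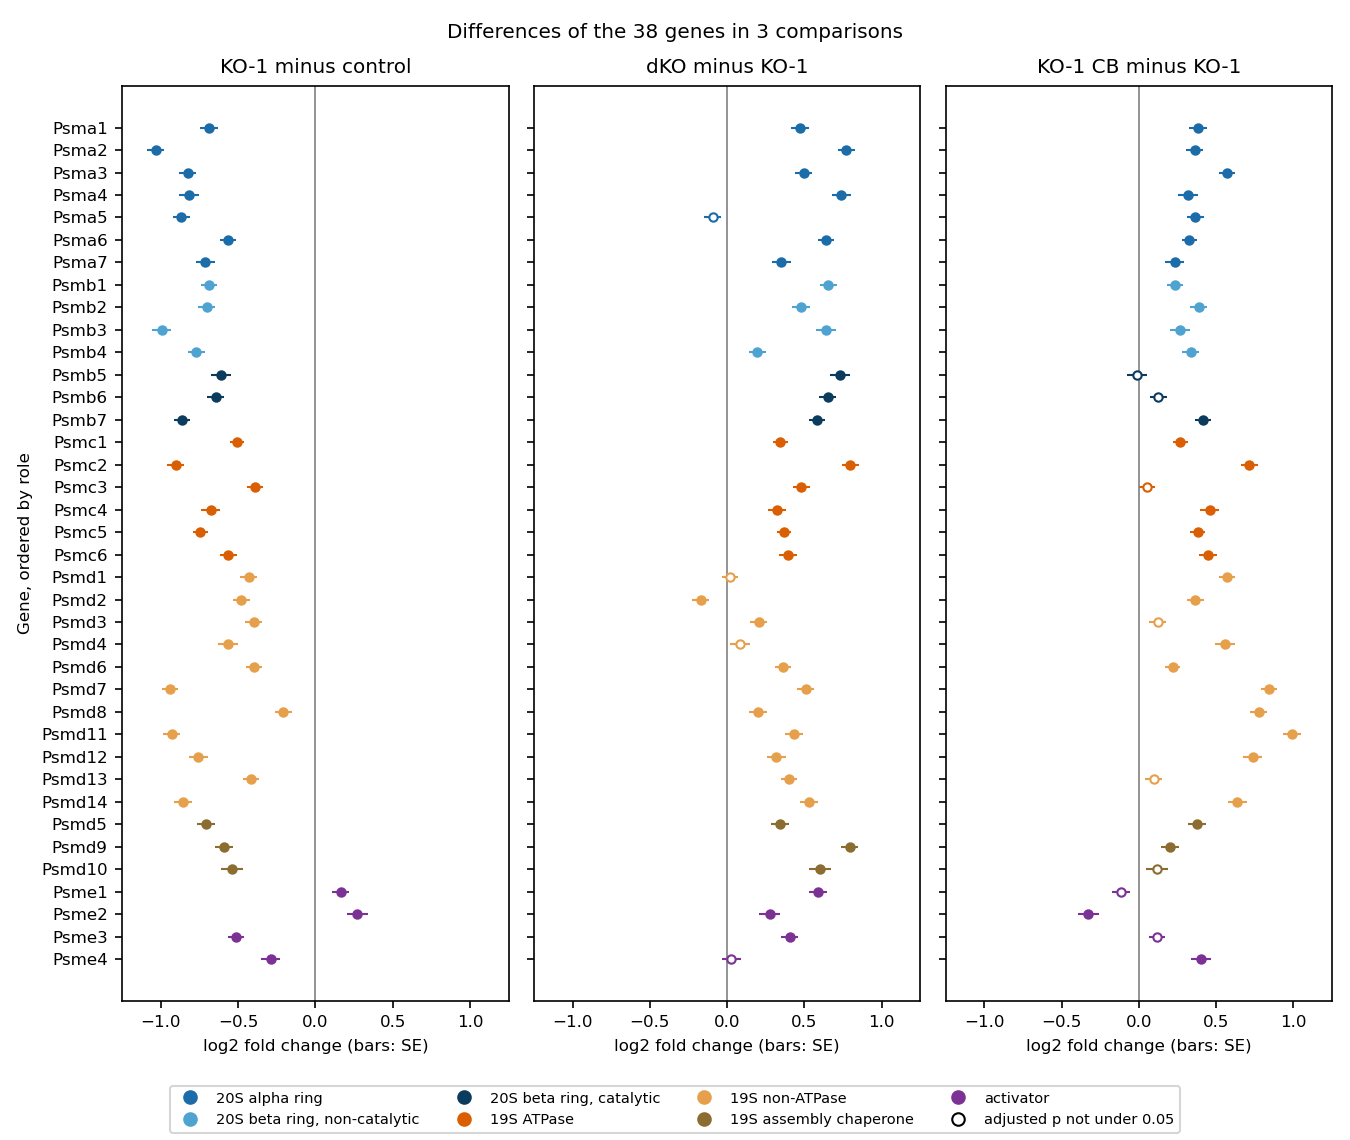
Log2 fold change of the 38 genes in 3 comparisons, with the SE of the limma fit as bars and roles as colours; open circles did not reach an adjusted p under 0.05. All genes but Psme1 and Psme2 lie left of 0 in KO-1 minus control, and most lie right of 0 in both other panels.

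Psmc2, an ATPase of the 19S ring, had 6083, 5955 and 5763 normalized counts in dKO and 3211, 3607 and 3433 in KO-1 (log2 fold change 0.80 ± 0.054, adjusted p = 4.54e-11). Psmd9, a 19S chaperone, had 2002, 2205 and 2113 in dKO and 1192, 1247 and 1206 in KO-1 (0.79 ± 0.056, adjusted p = 8.14e-11). Psma2, the gene lowest in KO-1 relative to control, had 2584, 2568 and 2435 in dKO and 1527, 1522 and 1395 in KO-1 (0.77 ± 0.053, adjusted p = 6.11e-11). In all 3 genes every dKO library was above every KO-1 library, and these were the 3 largest rises.

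The catalytic subunits all rose, and of the 3 only Psmb7 was called lower than in control with the deposited scaling. Psmb5 had 1789, 1965 and 1797 normalized counts in dKO, a rise of 0.73 ± 0.064 over KO-1 (adjusted p = 2.13e-09). Psmb6 had 4161, 4502 and 4403 (0.65 ± 0.056, adjusted p = 1.95e-09), and Psmb7 had 7433, 7413 and 7197 (0.58 ± 0.051, adjusted p = 2.26e-09). Against control, Psmb5 differed by 0.12 ± 0.064 (adjusted p = 0.11) and Psmb6 by 0.0044 ± 0.056 (adjusted p = 0.952), neither called, while Psmb7 was still lower (-0.28 ± 0.051, adjusted p = 5.67e-05). These calls depended on the scaling: after quantile normalization Psmb5 (0.16, adjusted p = 0.0303) and Psmb6 (0.14, adjusted p = 0.0382) were called higher than in control and Psmb7 was not called (-0.078, adjusted p = 0.167), and edgeR on the recovered reads also called Psmb5 higher (0.14, adjusted p = 0.0481). Of the inducible partners, Psmb9 fell to 135, 138 and 148 in dKO (-1.55 ± 0.15, adjusted p = 1.06e-08) and Psmb8 to 937, 1146 and 1098 (-0.69 ± 0.085, adjusted p = 3.56e-07), and Psmb10 was not called (0.073 ± 0.086, adjusted p = 0.47).

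PA28 rose further. Psme1 had 3296, 3510.1 and 3564 normalized counts in dKO, above the 2326, 2375 and 2191 of KO-1 (0.59 ± 0.057, adjusted p = 9.27e-09). Psme2 had 1426, 1501 and 1433 in dKO and 1256, 1247 and 1106 in KO-1 (0.27 ± 0.069, adjusted p = 0.00138), a call that was lost when chromosome medians were removed (0.13, adjusted p = 0.105). Psme3 had 4542, 4661 and 4451 in dKO, a rise of 0.40 (adjusted p = 9.69e-07), and Psme4 had 4154, 3599.8 and 3649, which overlapped KO-1 (0.027 ± 0.063, adjusted p = 0.721).

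Of the 5 genes that did not rise, 4 lie on chromosomes whose tested genes had medians below 0 in this comparison by at least 0.21; Psme4 does not. Psmd2, the base subunit that scaffolds ubiquitin receptors, had 11775, 11573 and 11331 normalized counts in dKO and 12317, 13394 and 13314 in KO-1 (log2 fold change -0.17 ± 0.055, adjusted p = 0.0101), the only one of the 38 called lower, though not after quantile normalization (adjusted p = 0.316). It lies on chromosome 16, where all 431 tested genes had a median of -0.41. Psma5, of the alpha ring, Psmd4, a ubiquitin receptor, and Psmb4 lie on chromosome 3 (median of 656 genes -0.39), and had -0.094 ± 0.055, 0.083 ± 0.064 and 0.20 ± 0.056, of which only Psmb4 was called (adjusted p = 0.0041; 6197, 6669 and 6282 in dKO, 5561, 5858 and 5297 in KO-1). Psmd1, the other large base scaffold, lies on chromosome 1 (median of 757 genes -0.21) and had 0.020 ± 0.053. Psmc2 and Psmd9, at the upper end, are the 2 genes of the 38 on chromosome 5 (median of 870 genes 0.39).

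With the median of each chromosome removed from every library, 36 of the 38 were higher in dKO (31.5% of all genes in that fit), and the lower call was lost. Psmd2 then stood at 0.25 (adjusted p = 4.56e-04), Psma5 at 0.30 (1.15e-04), Psmd4 at 0.47 (2.31e-06) and Psmd1 at 0.25 (3.72e-04), where the values in parentheses are adjusted p-values. Psmc2 and Psmd9 stood at 0.38 and 0.38. What set the chromosome medians apart was not tested.

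**Figure D5:**
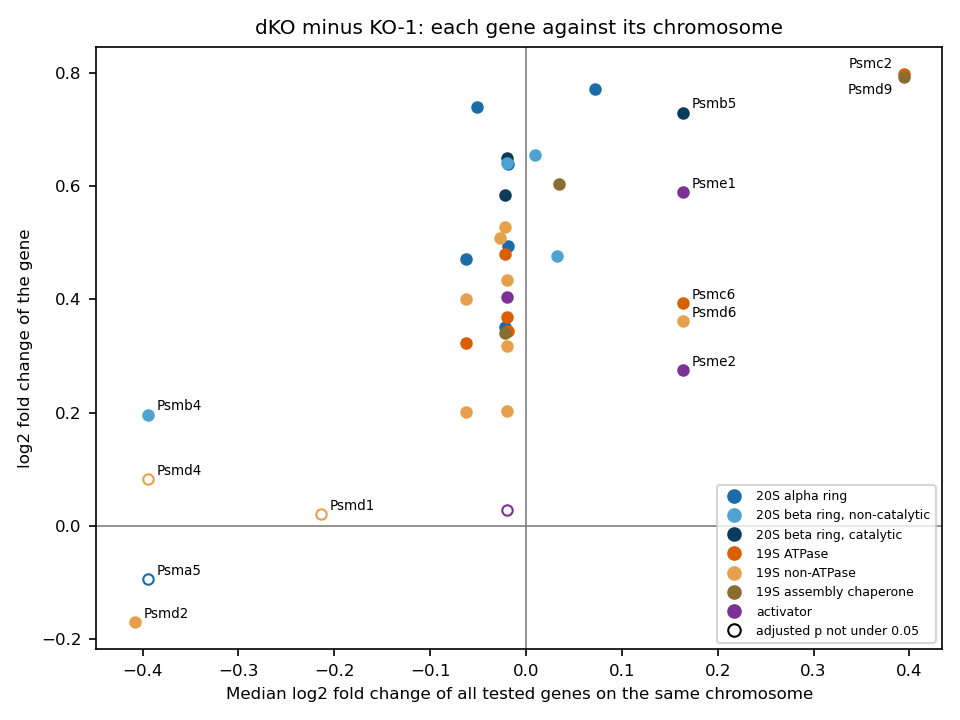
Log2 fold change of each of the 38 genes in dKO minus KO-1 (vertical) against the median log2 fold change of all tested genes on its chromosome (horizontal); open circles were not called. Psmd2, Psma5, Psmd4 and Psmb4 lie at the left with chromosome medians of -0.41 and -0.39, and Psmc2 and Psmd9 at the right with 0.39.

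Genes of different exon length differed in this comparison as well, and the reason was not tested. The median over all genes was 0.25 in the group with the shortest exons and -0.23 in the group with the longest. With length and level medians removed, 20 of the 38 were higher (32.9% of all genes in that fit) and 8 lower (33.6%), with a median of 0.14. Psma2 (0.67), Psmd9 (0.67) and Psmb5 (0.26) were still called higher, Psmb7 was not called (0.096, adjusted p = 0.0555), Psmd8 turned to -0.047 (adjusted p = 0.372), and Psme2 (-0.20) and Psmb4 (-0.29) turned to lower. Psmd8 had 4164, 4590.4 and 4423 normalized counts in dKO and 3855, 3903 and 3704 in KO-1 with the deposited scaling (0.20 ± 0.057, adjusted p = 0.00393).

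Set against control, dKO had 23 of the 38 genes lower (60.5%; 35.1% of all tested genes) and 3 higher (7.89%; 32.0%), with 12 not called and a median of -0.22. The 3 were Psme1 (0.75 ± 0.057, adjusted p = 1.97e-10), Psme2 (0.54 ± 0.069, adjusted p = 4.92e-07) and Psmd9 (0.20 ± 0.056, adjusted p = 0.00344). The call of Psmd9 was lost with chromosome medians removed (0.035, adjusted p = 0.599). Psma5 had 2147, 2314 and 2090.1 normalized counts in dKO and 4133, 4198 and 4428 in control, the largest fall (-0.96 ± 0.055, adjusted p = 2.40e-12). The genes of its chromosome 3 had a median of -0.44 in dKO against control, and with chromosome medians removed Psma5 stood at -0.51 (adjusted p = 9.39e-08), beside -0.52 for Psmd11. The count of 23 depended on the scaling: 17 were lower in dKO than in control after quantile normalization (median -0.099) and 16 when scaled to library totals (median -0.080), where Psma1, Psmc1, Psmc6, Psmd3 and Psme4 lost their calls in both.

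The third comparison asked what ciliobrevin D did in the KO-1 line. Of the 38 genes, 29 were higher in KO-1 CB than in KO-1 (76.3%; 32.7% of all tested genes), 1 was lower (2.63%; 32.9%) and 8 were not called, with a median of 0.36, against -0.016 for all tested genes. The groups did not overlap for 32 that were higher (34.3% of all tested genes) and 1 that was lower (33.9%). The 8 genes of the 19S lid among the 38 had a median of 0.69, the 3 non-ATPase base subunits 0.56, the 6 ATPases 0.41, the 14 core genes 0.33 and the 3 catalytic subunits 0.13. Sem1, another lid component, is not among the 38. Whether these medians differ was not tested. The 8 genes not called were Psmb5, Psmb6, Psmc3 (0.053), Psmd3, Psmd13, Psmd10 (0.12), Psme1 and Psme3. Among the called genes, Psma7 and Psmb1 lost their calls after quantile normalization (adjusted p = 0.618 and 0.266). Both also lost them when scaled to library totals (adjusted p = 0.190 and 0.120). Psmc1 lost its call with the former (adjusted p = 0.253) and Psmb3 with the latter (adjusted p = 0.0810).

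Psmd11, a lid subunit, had 3606, 3984 and 4199 normalized counts in KO-1 CB and 1945, 2047 and 1929 in KO-1 (log2 fold change 0.99 ± 0.057, adjusted p = 3.38e-12). Psmd7 had 4336, 4492 and 4495 in KO-1 CB and 2344, 2662 and 2436 in KO-1 (0.84 ± 0.053, adjusted p = 1.40e-11). Psmd8 had 6314, 6655 and 6645 in KO-1 CB and 3855, 3903 and 3704 in KO-1 (0.77 ± 0.057, adjusted p = 1.62e-10). All 3 belong to the lid, the part of the cap that carries the deubiquitinase, and every treated library was above every KO-1 library. Psmd12 rose by 0.74 and Psmd14, the deubiquitinase, by 0.64, but 2 lid genes, Psmd3 (0.12 ± 0.056, adjusted p = 0.0616) and Psmd13 (0.096 ± 0.054, adjusted p = 0.125), were not called. Both were called higher with chromosome medians removed (0.16 and 0.14, adjusted p = 0.0151 and 0.0300). Neither was called with length and level medians removed (-0.041 and -0.067).

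The smallest of the called rises were those of Psmd6, of the lid, and Psmd9, the chaperone. Psmd6 had 1711, 1776 and 1759 normalized counts in KO-1 CB and 1501, 1527 and 1480.1 in KO-1 (0.22 ± 0.050, adjusted p = 6.37e-04). Psmd9 had 1397, 1391 and 1404 in KO-1 CB and 1192, 1247 and 1206 in KO-1 (0.20 ± 0.056, adjusted p = 0.00338). Both calls were lost when values were scaled to library totals instead (adjusted p = 0.172 for Psmd6 and 0.321 for Psmd9), and Psmd9 turned to -0.020 with chromosome medians removed.

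Of the catalytic subunits, only Psmb7 was called. Psmb5 had 1142, 1117 and 1058 normalized counts in KO-1 CB and 1107, 1219 and 1025 in KO-1, and the groups overlapped (log2 fold change -0.012 ± 0.064, adjusted p = 0.879). Psmb6 had 3096, 3109.6 and 2884 in KO-1 CB and 2747, 2989.6 and 2600.2 in KO-1, again with overlap (0.13 ± 0.056, adjusted p = 0.0547). Psmb7 had 6329.7, 6756 and 6543 in KO-1 CB, above all KO-1 libraries (0.42 ± 0.051, adjusted p = 3.77e-07). Per exon length, Psmd11 amounted to 108% ± 12.3 of Psmb5 in KO-1 CB, 43.8% ± 2.02 in dKO, 53.7% ± 3.09 in KO-1 and 67.0% ± 3.40 in control (SD, n = 3 each), and the KO-1 CB libraries (95.8% to 120%) were above all others. Psmd11 had the largest rise here and Psmb5 none, so the higher ratio than in KO-1 restates their fold changes. Both genes have pseudogene copies, which leaves the ratio uncertain. The Psmb6 call depended on the setting: it was called higher without KO-1 CB replicate 3 (0.16, adjusted p = 0.0227) and without KO-1 replicate 2 (0.18, adjusted p = 0.0126), and lower with length and level medians removed (-0.21, adjusted p = 8.69e-04).

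Neither PA28 gene was called higher in KO-1 CB. Psme2 had 1055, 911 and 913 normalized counts in KO-1 CB and 1256, 1247 and 1106 in KO-1, the 1 lower call among the 38 (-0.33 ± 0.069, adjusted p = 2.76e-04). Psme1 had 2253, 2159 and 1956 in KO-1 CB and 2326, 2375 and 2191 in KO-1 (-0.12 ± 0.057, adjusted p = 0.0784), and was called lower without KO-1 CB replicate 1 (-0.16, adjusted p = 0.0243) or KO-1 replicate 3 (-0.15, adjusted p = 0.043). It was also called lower with chromosome medians removed (-0.15, adjusted p = 0.0188) and with length and level medians removed (-0.17, adjusted p = 0.00335). Psme3 had 4031, 3631 and 3559.6 in KO-1 CB, not called (0.12 ± 0.053, adjusted p = 0.0566), though it was called higher without KO-1 CB replicate 3 (0.15, adjusted p = 0.0218). With chromosome medians removed Psme3 was called higher (0.15, adjusted p = 0.0137), and with length and level medians removed it was called lower (-0.15, adjusted p = 0.017). Psme4 had 4717, 5161 and 4897 in KO-1 CB and 3715, 3541 and 3919 in KO-1 and rose by 0.40 ± 0.063 (adjusted p = 9.51e-06). The inducible subunits fell: Psmb9 to 255, 169 and 174 (-1.07 ± 0.15, adjusted p = 2.40e-06), Psmb8 to 1320.1, 1168 and 1069.5 (-0.53 ± 0.085, adjusted p = 1.36e-05) and Psmb10 to 379, 370.3 and 321 (-0.37 ± 0.086, adjusted p = 7.11e-04) normalized counts in KO-1 CB.

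With length and level medians removed, 20 of the 38 were higher in KO-1 CB than in KO-1 (33.1% of all genes in that fit) and 6 lower (34.2%), with a median of 0.16. Psmd11 (0.88), Psmd8 (0.61) and Psmd7 (0.54) were still called higher, and Psmb7 was not (0.080, adjusted p = 0.104). The group of genes with the highest level, which holds 26 of the 38, had a median of 0.16 in this comparison.

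Set against control, KO-1 CB had 27 of the 38 lower (71.1%; 32.0% of all tested genes) and 2 higher (5.26%; 33.0%), with 9 not called and a median of -0.29. All 14 core genes were among the lower ones, with a median of -0.47, and the 8 lid genes among the 38 had a median of -0.14. Psmd8 was the 1 gene well above control (6314, 6655 and 6645 normalized counts in KO-1 CB and 4103, 4376 and 4779.8 in control, 0.57 ± 0.057, adjusted p = 2.21e-08). Psmd1 was the other (0.14 ± 0.053, adjusted p = 0.0273), a call lost without KO-1 CB replicate 2 (adjusted p = 0.164) or control replicate 3 (adjusted p = 0.113). The KO-1 CB and dKO libraries are set against the same KO-1 and control libraries, so their values are given side by side and not compared as independent results.

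The genes that control, assemble and serve the proteasome were read from lists of known function. Of all tested genes, 34.4% were called higher and 35.4% lower in KO-1 against control, 32.5% and 33.2% in dKO against KO-1, and 32.7% and 32.9% in KO-1 CB against KO-1, and each list's counts stand beside these shares. Proteasome maturation protein, encoded by Pomp, is needed to build the core, and had 2503, 2676 and 2620.0 normalized counts in KO-1 CB, 3195, 3209 and 3115 in dKO, 1447, 1671 and 1443 in KO-1 and 3472, 3828 and 3837 in control. It fell by 1.29 in KO-1 against control (adjusted p = 1.15e-13), and rose by 1.06 in dKO and 0.78 in KO-1 CB against KO-1 (adjusted p = 2.33e-12 and 3.53e-10). Of the 7 assembly factors tested, 5 were lower in KO-1 than in control, 4 were higher and 1 lower in dKO than in KO-1, and 4 were higher in KO-1 CB than in KO-1. Psmg3, a core assembly chaperone, had -0.71, 0.90 and 0.27 in these 3 comparisons, and Akirin2, which brings proteasomes into the nucleus, -0.48, 0.29 and 0.40, all called. In KO-1 CB the call of Psmg3 was lost with chromosome medians removed (0.046, adjusted p = 0.595) and scaled to library totals (0.13, adjusted p = 0.128), and Akirin2 turned to -0.035 in dKO with length and level medians removed. Ecpas, an adaptor of the 26S particle, was not called in KO-1 (0.077) and rose in KO-1 CB (0.37). In dKO its groups overlapped (-0.15, adjusted p = 0.0471). That call was lost with edgeR (adjusted p = 0.0902), DESeq2 (0.0506), TMM scaling (0.0837), no filter (0.0795), quantile normalization (0.0989) and library totals (0.632). It was also lost without dKO replicate 2 or 3, KO-1 replicate 1 or 3, control replicate 3 or the unnumbered control library (0.0519 to 0.195, where values in parentheses are adjusted p-values), and Ecpas turned to 0.21 with length and level medians removed.

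All 7 proteasome-associated genes were lower in KO-1 than in control and all 7 were higher in dKO than in KO-1, and 6 were higher in KO-1 CB. The KO-1 call of Psmf1 (-0.19, adjusted p = 0.0275) was lost after quantile normalization (0.0567), scaled to library totals (0.0812) and without KO-1 replicate 1 (0.0712), KO-1 replicate 3 (0.0888) or control replicate 1 (0.128), and the dKO call of Usp14 (0.15, adjusted p = 0.0151) without dKO replicate 1 (0.0841) or KO-1 replicate 1 (0.074), where the values in parentheses are adjusted p-values. Sem1, the smallest lid component, fell most in KO-1 (-1.62 ± 0.073, adjusted p = 6.60e-14); it lies on chromosome 6, whose 638 tested genes had a median of -0.42. The deubiquitinase Uchl5 fell by 0.91, its receptor Adrm1 by 0.59, the deubiquitinase Usp14 by 0.46 and the thioredoxin-like Txnl1 by 0.67. Against KO-1, Txnl1 (0.39), the ligase Ube3c (0.39) and the inhibitor Psmf1 (0.55) rose in dKO, and Adrm1 (0.69), Txnl1 (0.52) and Usp14 (0.45) rose in KO-1 CB. Ube3c turned to 0.014 in KO-1 and to -0.030 in dKO with chromosome medians removed, and the KO-1 CB call of Ube3c was lost there (0.074, adjusted p = 0.236). With length and level medians removed, Adrm1 turned to -0.19 in dKO and Uchl5 was not called (0.10, adjusted p = 0.145).

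Of 8 genes that carry substrates to the proteasome or extract them, 6 were lower in KO-1 than in control. The shuttle Rad23b had -1.0004 in KO-1 against control, 0.61 in dKO and 0.72 in KO-1 CB against KO-1, and Ubqln1 -0.61, 0.52 and 0.42, all called. Nploc4, a cofactor of the segregase VCP, fell in KO-1 (-0.39), was not called in dKO (0.098, adjusted p = 0.066; called with edgeR, adjusted p = 0.0283, and DESeq2, adjusted p = 0.0469) and rose in KO-1 CB (0.41). In dKO, 4 of the 8 rose, beside 32.5% of all tested genes, and 2 fell, beside 33.2%. Among the 2 was Ubqln4 (-0.51), which lies on chromosome 3 and was not called with chromosome medians removed (-0.12, adjusted p = 0.0576). In KO-1 CB, 4 rose and 1, again Ubqln4, fell (-0.25).

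Of 6 genes for ubiquitin and its E1 enzymes, 5 were lower in KO-1 than in control. Against KO-1, 5 were higher in dKO and 4 in KO-1 CB. The polyubiquitin gene Ubb had 14189, 13579 and 15011 normalized counts in KO-1 CB, 11211, 13331 and 12893 in dKO, 8526, 9152 and 8393 in KO-1 and 9634, 10221 and 11343 in control, so that all KO-1 CB libraries were above all control libraries. Ubb rose by 0.71 in KO-1 CB and by 0.52 in dKO against KO-1, the dKO call being lost with length and level medians removed (0.081, adjusted p = 0.205). The E1 enzymes Uba1 and Uba6, which activate ubiquitin, had -0.25 and -0.48 in KO-1 against control, both called, but Uba1 was not called after quantile normalization (-0.071, adjusted p = 0.281) or with chromosome medians removed (-0.072, adjusted p = 0.314). Against KO-1, Uba6 had 0.48 in KO-1 CB and 0.43 in dKO, both called, and the dKO value stood at 0.0098 (adjusted p = 0.913) with chromosome medians removed. With length and level medians removed, Ubb turned to higher in KO-1 against control (0.22), where its fall with the deposited scaling (-0.26) was not called after quantile normalization (-0.079, adjusted p = 0.333).

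Of the 4 genes listed for the control of subunit genes, 1 was lower in KO-1 than in control and 1 lower in dKO than in KO-1 (beside 35.4% and 33.2% of all tested genes), and 3 were higher and 1 lower in KO-1 CB than in KO-1 (beside 32.7% and 32.9%). Nfe2l1 (NRF1) had 12918, 11720.1 and 11385 normalized counts in KO-1 CB, 11179, 11893 and 11241 in dKO, 16651, 17137 and 18069 in KO-1 and 15357, 16498 and 15466 in control. It was lower in dKO (-0.60 ± 0.059, adjusted p = 1.33e-08) and in KO-1 CB (-0.53 ± 0.059, adjusted p = 9.08e-08) than in KO-1. In KO-1 against control Nfe2l1 was not called, though the KO-1 libraries lay above the control libraries. A relation of the Nfe2l1 level to the subunit transcripts was not tested. NRF1 is known to be controlled through the cleavage and stability of its protein, which these data do not measure. Ddi2, the protease that cleaves it, had 0.19 ± 0.069 in KO-1 CB against KO-1 (adjusted p = 0.0204), a call lost without KO-1 CB replicate 1 (0.16, adjusted p = 0.076) and scaled to library totals (0.058, adjusted p = 0.518). Nfe2l2 (NRF2), which answers oxidative stress, had 5063, 5147 and 5220.0 in KO-1 CB, 2961, 2869 and 2813 in dKO, 2949.6, 2877 and 3036 in KO-1 and 3341, 3455 and 3464 in control, so KO-1 CB was the highest group without overlap (0.80 ± 0.047 against KO-1, adjusted p = 4.74e-12; -0.036 ± 0.047 in dKO against KO-1, adjusted p = 0.515). In KO-1 against control it fell by 0.21 (adjusted p = 4.29e-04), which turned to 0.12 with length and level medians removed.

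Both factors bind antioxidant response elements, so the upstream sequences of the 38 genes were searched for the core of that element, TGACNNNGC, on both strands of the 250 bases before each RefSeq start. Windows were found for 32 of the 38 genes, and 5 of them (15.6%) held a match, against 11.5% of 27025 genes with a window. The sequences of 4 of the 5 are shown with the match in capitals, because their changes with ciliobrevin D differed in size, together with that of Psmd11, which rose most and has no match; that of Psmb6, the fifth, runs into the annotated gene. They are given 5′ to 3′ on the strand of the gene, from RefSeq on build GRCm38.p6: Psmb5 at chr14:54617996-54618245 (minus strand), Psmc6 at chr14:45329574-45329823, Psmd9 at chr5:123227940-123228189, Psmd12 at chr11:107479278-107479527 and Psmd11 at chr11:80428365-80428614 (plus strand).
Psmb5: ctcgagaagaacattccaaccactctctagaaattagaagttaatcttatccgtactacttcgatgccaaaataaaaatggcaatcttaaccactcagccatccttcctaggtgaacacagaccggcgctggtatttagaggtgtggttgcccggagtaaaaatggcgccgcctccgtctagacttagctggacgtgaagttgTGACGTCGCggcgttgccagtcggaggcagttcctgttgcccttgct
Psmc6: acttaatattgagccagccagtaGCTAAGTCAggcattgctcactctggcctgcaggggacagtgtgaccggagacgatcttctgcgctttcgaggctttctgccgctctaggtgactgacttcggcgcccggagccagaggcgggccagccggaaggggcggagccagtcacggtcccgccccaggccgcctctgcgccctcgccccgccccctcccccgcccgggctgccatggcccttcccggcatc
Psmd9: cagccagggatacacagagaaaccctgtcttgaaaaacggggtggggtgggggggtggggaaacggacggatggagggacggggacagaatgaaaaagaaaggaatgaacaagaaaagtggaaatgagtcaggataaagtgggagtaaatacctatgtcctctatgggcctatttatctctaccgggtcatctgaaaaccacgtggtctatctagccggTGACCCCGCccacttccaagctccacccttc
Psmd12: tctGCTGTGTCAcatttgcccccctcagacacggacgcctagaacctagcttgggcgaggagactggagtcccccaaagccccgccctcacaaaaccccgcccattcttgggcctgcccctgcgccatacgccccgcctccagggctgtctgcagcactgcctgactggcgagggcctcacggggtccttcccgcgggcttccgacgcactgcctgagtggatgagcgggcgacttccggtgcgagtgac
Psmd11: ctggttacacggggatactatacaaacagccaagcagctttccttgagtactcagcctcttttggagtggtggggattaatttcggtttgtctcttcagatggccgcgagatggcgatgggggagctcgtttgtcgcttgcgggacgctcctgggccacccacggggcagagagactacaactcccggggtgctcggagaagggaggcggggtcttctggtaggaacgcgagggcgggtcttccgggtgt

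The match lies 47 to 39 bases before the start of Psmb5 and 31 to 23 before that of Psmd9 on the strand of the gene, and on the opposite strand 227 to 219 before Psmc6 and 247 to 239 before Psmd12. In KO-1 CB against KO-1 the 5 genes with a match had log2 fold changes of -0.012 (Psmb5), 0.13 (Psmb6), 0.45 (Psmc6), 0.20 (Psmd9) and 0.74 (Psmd12). Psmc6, Psmd9 and Psmd12 were called higher, beside 29 of the 38 genes (76.3%) and 32.7% of all tested genes. A relation of the element to these changes was not tested. The CCAAT box stood in 37.5% of the windows of the 38 genes and in 37.5% of all windows. The core of the interferon-stimulated response element stood in 3 windows (9.38%, against 3.46% of all), those of Psmb3, Psmd4 and Psmd9. All of these fell in KO-1 against control, as did 36 of the 38 genes. A match of letters is a description and shows no binding.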

How the data were processed

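The columns hold featureCounts counts per the file headers, deposited as a scaled signal per gene. The values show each count divided by a size factor of its library: all values were whole multiples of 1 step per library (tolerance 0.01 reads), so whole reads were recovered. The submitters' processing notes name HISAT2 2.2.1, fastp 0.23.2, DESeq2 2.11.40.7, featureCounts 2.0.1, mm10 and GRCm38, without options or strand setting. Names came from RefSeq GRCm38.p6 and exon lengths, as the union of a gene's exons, from the basic set of GENCODE transcripts.

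Genes that reached 10 in 3 or more libraries were fitted as log2(value + 1) with limma 3.58.1 (trend, 12 libraries, 5 comparisons, two-sided, Benjamini-Hochberg over 13939 genes). Steps were tested on simulated data. Given in full were the activators, the catalytic subunits and the 3 highest and 3 lowest called members in each of the first 3 comparisons, and of each pathway list up to 3 called genes with the smallest adjusted p per comparison. Some genes of these lists are not reported here. Other members were named, and the motifs chosen, after their values were seen. The members and lists were chosen with earlier results of these data known. Replicates differed by more than counting noise. Same-numbered libraries did not deviate together (r -0.042 to 0.067), so numbers were not treated as pairs. Alternatives included count models of the recovered reads in DESeq2 1.42.0 and in edgeR 4.0.16, other scalings and filters, and omission of each library.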

Additional observations from a re-analysis of the deposited data

How the results depend on the processing

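Over 25 alternatives and 5 comparisons, the 38 genes gave 4750 values, of which 4592 kept the reported call or lack of one, 78 lost a call, 72 gained one and 8 were called in the opposite direction; of 753 values not called either way, 61 had the opposite sign. Leaving out 1 library at a time, medians were -0.71 to -0.62 in KO-1 against control, 0.40 to 0.45 in dKO against KO-1, 0.33 to 0.38 in KO-1 CB against KO-1, -0.23 to -0.20 in dKO against control and -0.31 to -0.26 in KO-1 CB against control; the higher counts were 1 to 2, 33 to 33, 29 to 31, 3 to 3 and 1 to 3, and the lower counts 36 to 36, 1 to 1, 1 to 2, 22 to 24 and 27 to 28. With the replicate block, 1 gene was higher in KO-1 than in control and 1 in KO-1 CB than in control (Psme1 and Psmd1 lost their calls, adjusted p = 0.0577 and 0.0805), while Psmb6, Psme3 and Psmd3 gained one in KO-1 CB against KO-1 (0.0418, 0.0497 and 0.0493); the numbers share no known source. TMM scaling, both pseudocounts, no filter and the higher filter left every count as reported. DESeq2 gave 30 higher in KO-1 CB than in KO-1 (Psme3, 0.12, adjusted p = 0.0458) and 28 lower in KO-1 CB than in control, and edgeR 4 higher in dKO than in control (Psmb5, 0.14, adjusted p = 0.0481). With only the 2 groups fitted, 1 gene was higher in KO-1 CB and 24 lower in dKO than in control. The causes of the following were not tested.

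After quantile normalization the medians were -0.58 (KO-1 against control), 0.22 (KO-1 CB against KO-1) and -0.099 (dKO against control); 8 genes were higher and 17 lower in dKO than in control, 1 higher in KO-1 CB than in control, 3 lower in KO-1 CB than in KO-1 and 0 lower in dKO than in KO-1 (limma; 0 at an unadjusted p under 0.05). Scaled to library totals, added after seeing the data, all genes shifted by 0.10, -0.15 and 0.13 in dKO against KO-1, KO-1 CB against KO-1 and dKO against control; the medians of the 38 were 0.53, 0.23 and -0.080, and -0.40 in KO-1 CB against control, with 9 higher and 16 lower in dKO and 1 higher in KO-1 CB than in control, and 2 lower in KO-1 CB and 0 lower in dKO than in KO-1 (0 unadjusted). With chromosome medians removed, the median was -0.34 in KO-1 CB against control with 1 higher, and 2 were lower in KO-1 CB and 0 lower in dKO than in KO-1 (0 unadjusted). With length and level medians removed, also added after seeing the data, medians were -0.26 (KO-1 against control), 0.14 (dKO against KO-1), 0.16 (KO-1 CB against KO-1), -0.14 (dKO against control) and -0.062 (KO-1 CB against control); 20 were higher and 8 lower in dKO than in KO-1, 6 lower in KO-1 CB than in KO-1, 8 higher in dKO than in control, and 5 higher and 17 lower in KO-1 CB than in control.

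Single genes turned direction. With chromosome medians removed, Ube3c stood at 0.014 (KO-1 against control), -0.030 (dKO against KO-1) and -0.016 (dKO against control), Psmd2 at 0.25 and Psma5 at 0.30 (dKO against KO-1) and Psmd9 at -0.020 (KO-1 CB against KO-1). With length and level medians removed, KO-1 against control gave Psmd8 0.17, Nfe2l2 0.12, Ubb 0.22, Ddi2 -0.16 and Psma6 0.043. On that scale dKO against KO-1 gave Psme2 -0.20, Psmd8 -0.047, Psmb10 -0.28, Akirin2 -0.035, Psmb4 -0.29, Ecpas 0.21, Adrm1 -0.19, Ddi2 0.20, Psma1 -0.017, Psma7 -0.14, Psmc1 -0.093, Psmc4 -0.12, Psmc5 -0.12, Psmd3 -0.044 and Psmd4 -0.35. KO-1 CB against KO-1 gave Psme3 -0.15, Psmb6 -0.21, Psmb3 -0.067, Psma6 -0.0086, Psma7 -0.10, Psmc1 -0.036 and Psmc3 -0.11. Against control, dKO gave Psmd8 0.12, Ecpas 0.17 and Psmd13 0.12, and KO-1 CB gave Psme2 0.31, Akirin2 0.14, Psmd6 0.038, Psma6 0.035, Psmb2 0.054 and Psmd4 0.17. After quantile normalization Psmc3 (-0.16) turned in KO-1 CB against KO-1, and Psmd8 (0.13), Uba1 (0.17) and Psmc1 (0.019) in dKO against control, where Psmd8 stood at 0.14 when scaled to library totals. Depth limits none of the 38 genes to low counts; 3 libraries a group limit the spread that could be measured.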
